A study of Mus musculus with 14 samples.

Results

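The TNF superfamily genes described here comprise 4 ligands and 6 receptors: Tnf, its receptors Tnfrsf1a (TNF receptor p55) and Tnfrsf1b (TNF receptor p75), Tnfsf11 (RANKL), Tnfrsf11a (RANK), Tnfrsf11b (osteoprotegerin, OPG), Tnfsf13b (BAFF), Tnfsf9 (ligand of CD137), Tnfrsf9 (CD137) and Fas. They were taken by symbol as a fixed set of 10 genes among the 55487 genes of each count table. RNA was sequenced from LSK cells (Lin- Sca1+ c-kit+, enriched in stem cells) and LK cells (Lin- c-kit+, myeloid progenitors) sorted from mice that carried heterozygous Jak2V617F under Mx1Cre, and from bone marrow cultures of wild-type mice labelled MSC. The mutant marrow came from donors already induced with pI-pC and had been transplanted into irradiated C57BL/6 recipients. Cells of the recipient which survived irradiation could therefore remain. In the donors Mx1Cre is switched on by pI-pC in many cell types rather than in blood cells alone, but only their marrow was transplanted. The Jak2V617F allele was shared by the control and the treated mice. These mice received PBS (3 libraries per population) or 0.5 µg IL-1β (2 libraries per population) at 3 doses per week for 16 weeks. Mice were taken into experiments at 6 to 8 weeks of age. The MSC cultures came from C57BL/6 marrow, carried no Jak2 mutation, were grown for 21 days and received PBS (replicates 2 and 3) or 5 ng/ml IL-1β (replicates 1 and 2) for 72 hours.

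Ligands of the TNF superfamily are made as membrane proteins that act as trimers, on the cell surface or after shedding, and cluster their receptors on the responding cell. Receptors with a death domain, such as Tnfrsf1a and Fas, can recruit the caspase machinery, whereas receptors such as Tnfrsf1b, Tnfrsf9 and Tnfrsf11a bind TRAF adaptors and activate NF-κB. In marrow, RANKL on stromal and bone-forming cells binds RANK on osteoclast precursors of the macrophage lineage and drives their fusion into osteoclasts, and OPG is a secreted decoy that captures RANKL.

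The libraries held 4393233 to 30871055 counted read pairs, and all IL-1β libraries of LSK and LK cells were shallower than their PBS counterparts, so that depth and treatment cannot be told apart there. Levels are given as CPM, meaning counts scaled by library total and TMM factor within a population. Levels of single genes are compared with each other as RPKM, which is CPM per kilobase of the deposited gene length. Sums of marker lists are in CPM and were not scaled for gene length. Genes counted as called had an adjusted p under 0.05 in edgeR's quasi-likelihood test, with a log2 fold change over 0.5 in size. In the LSK group with PBS, replicate 2 stood apart: 23% and 24.4% of genes differed over 2-fold from replicates 1 and 3, which differed from each other in 5.57% of genes. The stem cell marker Ly6a (Sca1) lay at 15.19 to 42.07 CPM in LSK and at 0.26 to 1.98 CPM in LK libraries, and lymphoid markers summed to at most 2.34 CPM in both. The label MSC was not matched by the leading marker genes of the cultures. Their 10 macrophage markers summed to 8387 to 13886 CPM and their 10 mesenchymal markers to 1429 to 4252 CPM. Of the mesenchymal markers only Lepr, a receptor that marks marrow stromal cells, was at 0 in both PBS libraries. Others were plainly present there, such as Col1a1 at 405 and 813 CPM. In whole populations such as these, fewer cells of a type and less RNA per cell cannot be told apart.

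**Figure D1:**
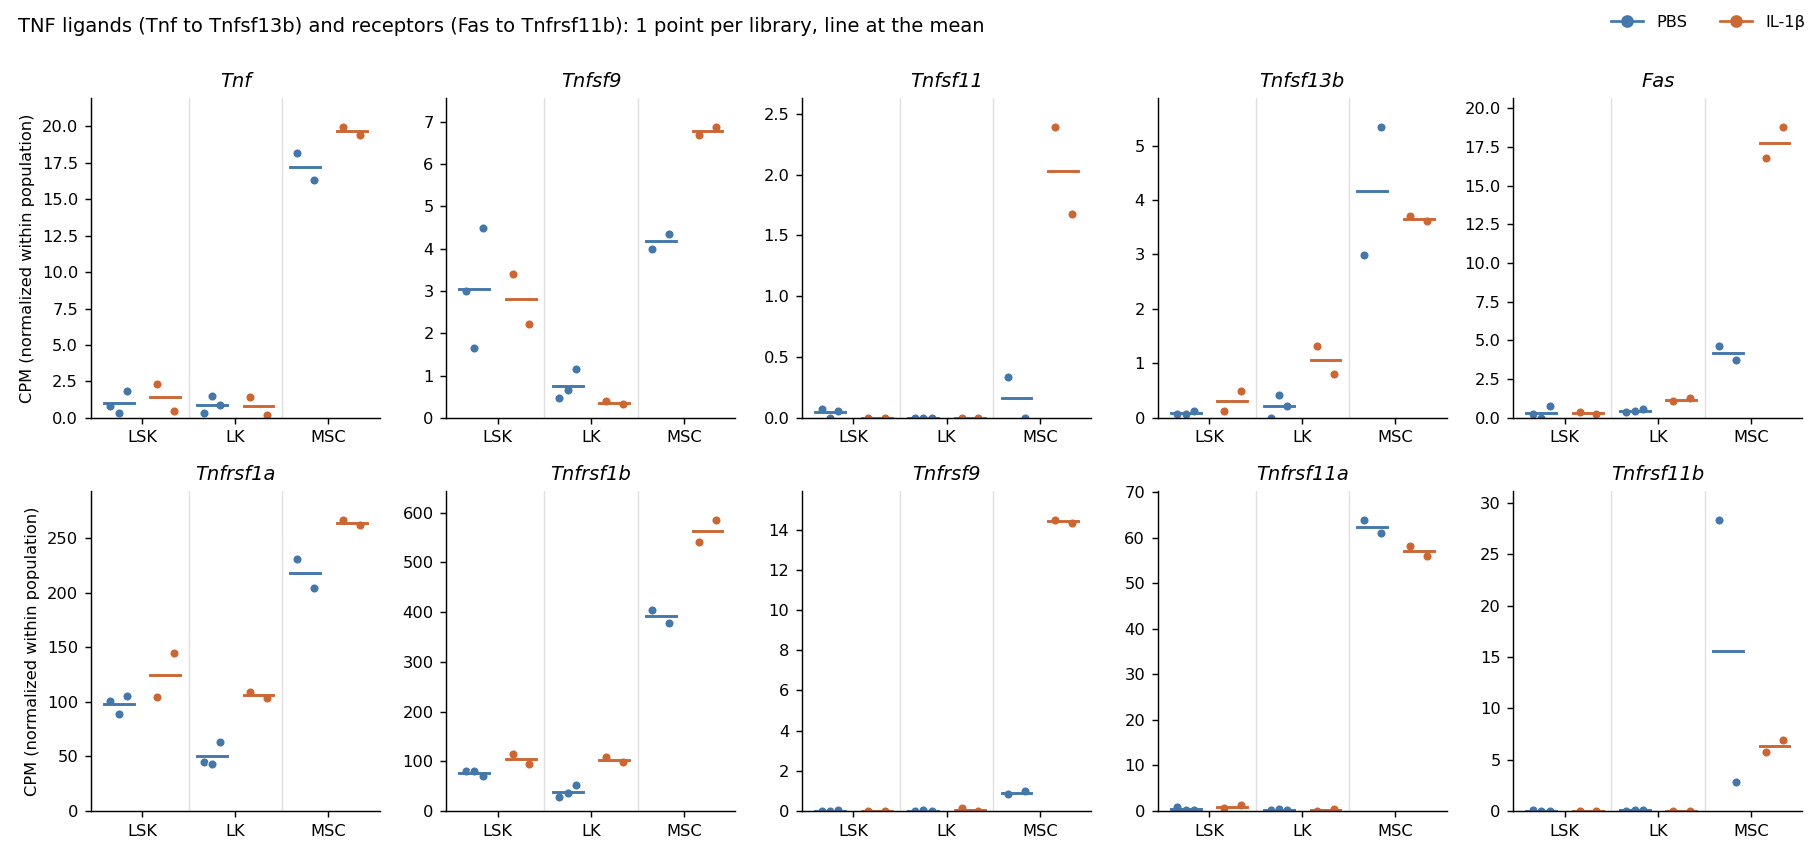
Level of each of the 10 genes in each of the 14 libraries, by population and treatment, in CPM on a linear axis with its own range for each gene. Each point is 1 library and each line a group mean. In LK cells the IL-1β points of Tnfrsf1a and Tnfrsf1b all lie above the PBS points, as do those of Tnfrsf9 and Fas in MSC cultures. Other genes lie apart too, such as Tnfrsf1b in LSK cells and MSC cultures. In LK cells 23.5% of all genes tested lay wholly above PBS, and in MSC cultures 61.1% did not overlap in either direction.

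The 2 receptors of TNF carried most of the signal of these genes. In LSK cells with PBS, Tnfrsf1a had a mean of 37.9 RPKM and Tnfrsf1b of 20.1 RPKM, followed by Tnfsf9 at 2.36 RPKM, and the ranges of these 3 genes over libraries did not overlap. Each of the other 7 genes averaged at most 0.607 RPKM. In LK cells with PBS the order began with Tnfrsf1a at 19.5 RPKM and Tnfrsf1b at 10.1 RPKM, again without overlap between their libraries, and the next genes, Tnfsf9 at 0.591 and Tnf at 0.542 RPKM, overlapped each other. In MSC cultures with PBS, Tnfrsf1b led with 102.7 RPKM over Tnfrsf1a with 84.2 RPKM. Tnf at 10.5 RPKM and Tnfrsf11a at 10.4 RPKM came next, and the ranges of these neighbours overlapped. In LSK cells 4 of the 10 genes and in LK cells 3 had at most 3 counts in every library, among them OPG, CD137 and RANKL in both populations, and RANKL had no count in any LK library. A count of 0 allows up to 0.743 CPM in the shallowest LSK library and up to 0.481 CPM in the shallowest LK library, from counting error only. All 10 genes exceeded 3 counts in at least 1 MSC library.

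In the MSC cultures 3 of the 10 genes rose with IL-1β, namely Tnfrsf9, Fas and Tnfrsf1b, and none was called lower. Over all 13239 genes tested in these cultures, 7.14% were called higher and 4.31% lower. The sequences upstream of the 3 called genes are shown as a reference for NF-κB, the transcription factor that IL-1 and TNF receptors activate. They are the 250 bases before the RefSeq transcription start on GRCm38.p6, read 5′ to 3′ on the strand of the gene, with matches to the 10-base NF-κB consensus in capitals.
Tnfrsf9, second listed start, chr4:150927749-150927998, plus strand: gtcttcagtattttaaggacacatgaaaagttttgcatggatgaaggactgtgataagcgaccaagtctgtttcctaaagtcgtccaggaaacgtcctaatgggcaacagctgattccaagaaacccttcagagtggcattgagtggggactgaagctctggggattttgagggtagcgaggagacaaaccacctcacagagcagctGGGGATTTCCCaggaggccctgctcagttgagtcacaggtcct
Fas, chr19:34290409-34290658, plus strand: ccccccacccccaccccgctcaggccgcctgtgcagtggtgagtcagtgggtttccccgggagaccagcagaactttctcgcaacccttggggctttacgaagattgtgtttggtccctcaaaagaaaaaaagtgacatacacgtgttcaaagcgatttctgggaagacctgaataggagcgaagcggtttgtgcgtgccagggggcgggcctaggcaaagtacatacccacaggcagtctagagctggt
Tnfrsf1b, chr4:145246871-145247120, minus strand: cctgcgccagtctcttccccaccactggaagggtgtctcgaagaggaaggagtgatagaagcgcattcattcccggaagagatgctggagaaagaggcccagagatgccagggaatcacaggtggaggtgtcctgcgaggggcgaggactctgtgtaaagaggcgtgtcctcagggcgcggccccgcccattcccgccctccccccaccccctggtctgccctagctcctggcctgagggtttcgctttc
The Tnfrsf9 window held 2 overlapping matches, GGGGATTTCC and GGGATTTCCC, beginning 43 and 42 bases before the start, and this start lies inside the annotated Tnfrsf9 gene. The Fas and Tnfrsf1b windows held no match. The consensus was searched on both strands and was found in 7.25% of the 32851 RefSeq windows of the same length. RefSeq windows were matched for 8 of the 10 genes, not for Tnfrsf11b and Tnfsf9, and of their 10 windows the second Tnfrsf9 window alone held a match.

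Tnfrsf9 (ENSMUSG00000028965, chromosome 4, 150914562 to 150946102), the costimulatory receptor CD137, had 0.83 and 0.98 CPM in the PBS cultures and 14.47 and 14.37 CPM in the IL-1β cultures. Both IL-1β libraries lay far above both PBS libraries, and the counts behind these levels were 5 and 13 against 442 and 163. The log2 fold change was 3.95 (SE 0.24, adjusted p = 0.00161), which is 15.4-fold. Its ligand Tnfsf9 had 4.0 and 4.36 CPM with PBS and 6.68 and 6.87 CPM with IL-1β. The groups did not overlap, as was true of 61.1% of all genes tested in these cultures, and the log2 fold change of 0.69 (SE 0.23) did not pass the test (adjusted p = 0.113).

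Fas (ENSMUSG00000024778, chromosome 19, 34290666 to 34327772), the death receptor bound by Fas ligand, had 4.66 and 3.76 CPM with PBS and 16.80 and 18.77 CPM with IL-1β. All IL-1β values were above all PBS values, and the log2 fold change was 2.10 (SE 0.20, adjusted p = 0.00468), which is 4.29-fold. Leaving out 1 IL-1β library raised the adjusted p to 0.107 without replicate 1 and to 0.101 without replicate 2, with log2 fold changes of 2.17 and 2.0. For Tnfrsf9 the adjusted p was 0.0638 without IL-1β replicate 1, at a log2 fold change of 3.96.

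Tnfrsf1b (ENSMUSG00000028599, chromosome 4, 145213463 to 145246870), the receptor of TNF that has no death domain, had 404.98 and 379.02 CPM with PBS and 540.60 and 584.66 CPM with IL-1β. The groups were apart, but the change was small, with a log2 fold change of 0.52 (SE 0.11, adjusted p = 0.0374) that lay just above the threshold of 0.5. It fell under that threshold, to 0.45, with upper-quartile scaling, and to 0.48 without PBS replicate 3. Without IL-1β replicate 1 or 2 its adjusted p was 0.361 or 0.414. The death domain receptor Tnfrsf1a had 231.30 and 204.84 CPM with PBS and 266.62 and 262.28 CPM with IL-1β. Its groups did not overlap either, and the log2 fold change of 0.28 (95% interval 0.01 to 0.55) was not called (adjusted p = 0.158). Tnf itself had 18.15 and 16.31 CPM with PBS and 19.94 and 19.39 CPM with IL-1β, for a log2 fold change of 0.20 (95% interval -0.15 to 0.55, adjusted p = 0.409).

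In the RANKL, RANK and OPG system, RANKL was nearly absent without IL-1β and OPG differed more between the PBS cultures than between the treatments. Tnfsf11 (RANKL, ENSMUSG00000022015, chromosome 14, 78277445 to 78308043) had 2 and 0 counts in the PBS cultures and 73 and 19 counts in the IL-1β cultures. These counts correspond to 0.33 and 0 CPM with PBS and to 2.39 and 1.67 CPM with IL-1β. Tnfsf11 therefore passed the filter on low counts through its IL-1β libraries only. Both IL-1β libraries were above both PBS libraries, and the ratio of the pooled, depth-scaled counts was 21.2 (95% exact interval 5.71 to 177.7, for counting error only). The log2 fold change of 4.14 (SE 1.01) just missed the threshold in edgeR (adjusted p = 0.0517) and passed it in DESeq2 (adjusted p = 0.0334), in limma-voom (0.0388) and with no filter on low counts (0.000105). It also passed without PBS replicate 3 (log2 fold change 2.65), and without PBS replicate 2, where the PBS library left has no RANKL count and no fold can be given. It did not pass under the other 6 alternatives, with adjusted p up to 0.544 without IL-1β replicate 1 and 0.358 without IL-1β replicate 2.

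Tnfrsf11a (RANK) had 63.78 and 60.96 CPM with PBS and 58.16 and 55.96 CPM with IL-1β. The IL-1β values were below the PBS values by little, and the log2 fold change of -0.13 (95% interval -0.37 to 0.12) was not called (adjusted p = 0.452). Tnfrsf11b (OPG) had 28.31 and 2.78 CPM with PBS and 5.70 and 6.87 CPM with IL-1β. The IL-1β values lay between the PBS values, and the log2 fold change of -1.23 (SE 1.08) did not pass the test (adjusted p = 0.51). Its direction depended on the PBS library kept: without PBS replicate 2 OPG was called higher with IL-1β (log2 fold change 1.15, adjusted p = 0.00284), and without PBS replicate 3 it was called lower (-2.20, adjusted p = 1.76e-07). Per 100 RPKM of OPG, RANKL amounted to 1.48 and 0 RPKM in the PBS cultures and to 52.9 and 30.7 RPKM in the IL-1β cultures. Both IL-1β ratios exceeded both PBS ratios, and the PBS ratios rest on 2 and 0 counts of RANKL.

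The same PBS pair also differed in some other genes of the osteoclast lineage and of stroma, but not in all. Of the osteoclast genes, Acp5 was higher in PBS replicate 2 and Dcstamp in PBS replicate 3, and Mmp9 spanned 16.3 to 69.2 CPM. Itgb3, Ctsk (126 to 170 CPM) and Atp6v0d2 (627 to 706 CPM) were closer between the PBS cultures. Of a list of 10 osteoclast genes 7 were tested in MSC cultures, of which 1 was called higher and 1 lower, and the list's median log2 fold change was -0.39 beside 0.00 over all genes tested. Acp5, which encodes the tartrate-resistant phosphatase of osteoclasts, rose from 5.16 and 1.73 CPM to 18.47 and 18.77 CPM (log2 fold change 2.58, adjusted p = 0.027). Itgb3, an integrin subunit of osteoclasts and platelets, fell from 60.61 and 52.02 CPM to 21.55 and 24.59 CPM (log2 fold change -1.29, adjusted p = 0.00595). Dcstamp, which is needed for the fusion of osteoclast precursors, had 5.66 and 36.98 CPM with PBS and 1.02 and 0.88 CPM with IL-1β (log2 fold change -4.5, adjusted p = 0.0652), so that PBS replicate 3 held the most. The stromal chemokine Cxcl12 had 304.90 and 69.83 CPM with PBS and 282.24 and 275.68 CPM with IL-1β. Its PBS replicate 3 culture lay below the other 3, and Col1a1, a collagen of stromal and bone-forming cells, had 813 and 405 CPM with PBS and 1085 and 1310 CPM with IL-1β. Of the 10 macrophage markers 6 were called higher with IL-1β, with the largest change in Adgre1 (F4/80, log2 fold change 1.32). The sum of all 10 rose from 8387 and 10109 CPM to 13815 and 13886 CPM. Of the 10, 9 had a positive log2 fold change. Cd68 went the other way (-0.47, not called), from 1518 and 1087 CPM with PBS to 1009 and 866 CPM with IL-1β. The mesenchymal markers summed to 1429 and 2884 CPM with PBS and to 3729 and 4252 CPM with IL-1β, with none of the 9 tested called. Most of each sum was collagen genes, among them Col3a1 with 179 and 510 CPM against 1324 and 1496 CPM. Of the 9, 6 had a positive log2 fold change. Runx2 (12.6 to 16.0 against 10.4 to 10.7 CPM) and Thy1 (15.8 to 17.7 against 12.1 to 13.3 CPM) were lower with IL-1β. The part of these marker levels in the changes of Tnfrsf9, Fas, Tnfrsf1b, RANKL and OPG was not tested.

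**Figure D2:**
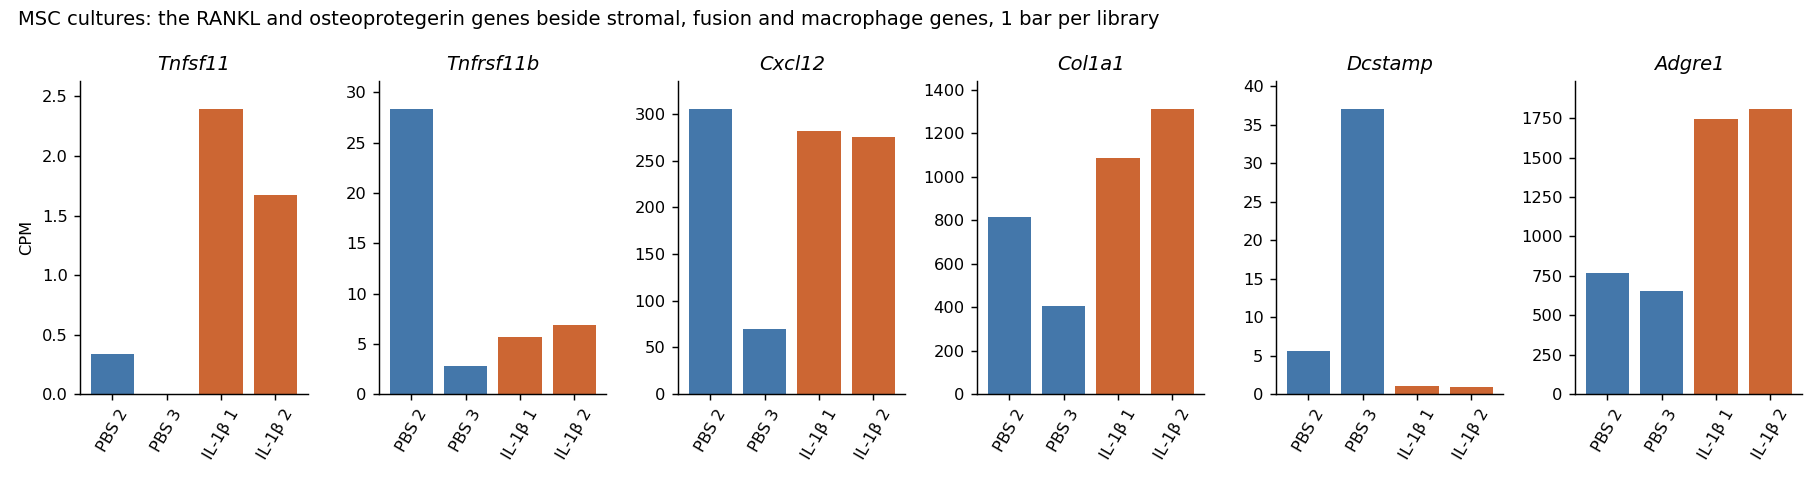
CPM of Tnfsf11 (RANKL), Tnfrsf11b (OPG), Cxcl12, Col1a1, Dcstamp and Adgre1 in the 4 MSC libraries, 1 bar per library, on linear axes from 0. RANKL is high in both IL-1β libraries, while the 2 PBS libraries differ widely in OPG (28.31 and 2.78 CPM), Cxcl12 (304.90 and 69.83 CPM) and Dcstamp (5.66 and 36.98 CPM).

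Tnfsf13b (BAFF), a survival factor of B cells, had 3.00 and 5.34 CPM with PBS and 3.7 and 3.61 CPM with IL-1β. Its treatments overlapped, with a log2 fold change of -0.23 (SE 0.35, adjusted p = 0.709).

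**Figure D3:**
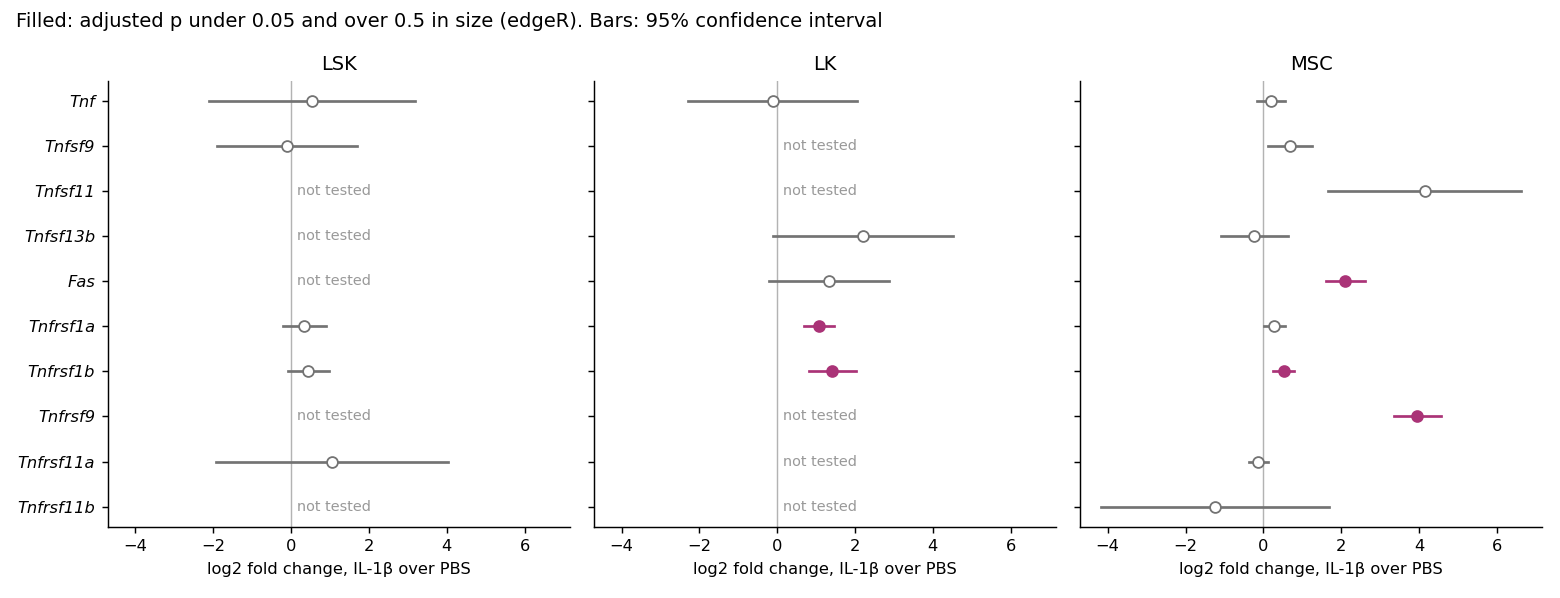
Log2 fold change of each tested gene with IL-1β against PBS in LSK, LK and MSC, with 95% intervals from edgeR. Filled points are called genes: Tnfrsf1a and Tnfrsf1b in LK and Tnfrsf9, Fas and Tnfrsf1b in MSC.

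In LK cells both receptors of TNF rose with IL-1β. They were 2 of the 5 genes that passed the filter on low counts, beside 6.77% called higher and 2.57% called lower among all 12835 genes tested. Tnfrsf1a had 44.93, 43.28 and 63.05 CPM with PBS and 109.31 and 103.68 CPM with IL-1β. Each IL-1β library exceeded the highest PBS library, as was true of 23.5% of all genes tested, and the log2 fold change was 1.08 (SE 0.17, adjusted p = 0.00838), which is 2.11-fold. Tnfrsf1b had 27.46, 35.32 and 52.75 CPM with PBS and 108.38 and 97.75 CPM with IL-1β. Its groups were also apart, at a log2 fold change of 1.42 (SE 0.25, adjusted p = 0.0184), which is 2.68-fold. With 1 IL-1β library left out, and the lone one assumed to vary like the PBS libraries, neither receptor was called. Without replicate 1 or 2 the log2 fold change of Tnfrsf1a was 1.03 or 1.13 (adjusted p = 0.13 or 0.0637), and that of Tnfrsf1b was 1.33 or 1.5 (adjusted p = 0.173 or 0.0872). Tnfrsf1b also lost its call without PBS replicate 2 (adjusted p = 0.0776).

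The other genes of the family were scarce in LK cells. Fas had 0.40, 0.41 and 0.57 CPM with PBS and 1.06 and 1.28 CPM with IL-1β, from 5 to 8 counts per library. The groups did not overlap, and the log2 fold change of 1.33 (SE 0.67) did not pass the test (adjusted p = 0.265). Tnfsf13b had 0, 8 and 3 counts with PBS and 10 and 5 counts with IL-1β, or 0, 0.41 and 0.21 against 1.32 and 0.80 CPM. It too was apart between treatments without passing (log2 fold change 2.20, SE 1.01, adjusted p = 0.221). Fas and Tnfsf13b passed the filter on low counts through their IL-1β libraries only. Tnf had 0.32, 1.49 and 0.86 CPM with PBS and 1.46 and 0.16 CPM with IL-1β, with overlapping groups and a log2 fold change of -0.12 (SE 0.95, adjusted p = 0.951). Tnfsf9 lay at 0.48 to 1.14 CPM with PBS and at 0.32 and 0.40 CPM with IL-1β, and Tnfrsf11a at 0 to 0.36 CPM over all 5 libraries, and neither was tested in LK cells alone. Neutrophil markers moved with the treatment in the same libraries. The 10 of them summed to 4411 to 9560 CPM with PBS and to 18109 and 21160 CPM with IL-1β, with 6 of 9 tested called higher and Ly6g at 0 in every library. Macrophage markers summed to 55.6 to 76.9 CPM with PBS and to 26.9 and 27.7 CPM with IL-1β. Most of each PBS sum was Csf1r, the receptor of macrophage colony-stimulating factor. It had 36.2 to 58.1 CPM with PBS and 4.76 and 11.1 CPM with IL-1β, and alone of the 7 tested was called lower. Of the 7, 2 had a log2 fold change above 0. Among these, Itgam had 1.75 to 2.36 CPM with PBS and 4.17 and 6.75 CPM with IL-1β and was not called. The part of these markers in the rise of the TNF receptors was not tested.

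In LSK cells none of the 5 genes tested was called with IL-1β, beside 0.632% called in either direction among all 13132 genes tested, and none of the 5 had an unadjusted p under 0.05, beside 18.5% of all genes. DESeq2 and limma-voom called none of them either. Tnfrsf1b had 79.53, 80.00 and 70.92 CPM with PBS and 113.65 and 94.86 CPM with IL-1β. The groups did not overlap, which held for 39.6% of all genes tested, and the log2 fold change was 0.44 (95% interval -0.08 to 0.96, adjusted p = 0.337). Tnfrsf1a had 100.64, 88.84 and 105.33 CPM with PBS and 104.17 and 145.13 CPM with IL-1β. Here 1 IL-1β library lay within the range of PBS and the other above it, at a log2 fold change of 0.34 (95% interval -0.22 to 0.90, adjusted p = 0.487). Without PBS replicate 2 the log2 fold changes were 0.49 for Tnfrsf1b (adjusted p = 0.204) and 0.29 for Tnfrsf1a (adjusted p = 0.45), and no gene of the 10 was called.

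Among the 4 ligands of the set, Tnfsf9 had the highest mean RPKM in LSK cells, from 2.99, 1.64 and 4.5 CPM with PBS and 3.40 and 2.23 CPM with IL-1β (log2 fold change -0.10, SE 0.80, adjusted p = 0.959). Tnf had 0.80, 0.31 and 1.87 CPM with PBS and 2.31 and 0.50 CPM with IL-1β (log2 fold change 0.53, SE 1.18, adjusted p = 0.838). Both ligands varied more between libraries of a treatment than between treatments. Tnfrsf11a had 0.88, 0.23 and 0.18 CPM with PBS and 0.61 and 1.24 CPM with IL-1β, from 3 to 12 counts (log2 fold change 1.06, SE 1.33, adjusted p = 0.707). Fas had 3, 0 and 13 counts with PBS and 3 and 1 with IL-1β, and was too low to be tested. Neutrophil markers summed to 2201 to 3179 CPM with PBS and to 9906 and 11598 CPM with IL-1β in LSK cells, and stem and progenitor markers to 1787 to 2308 CPM and to 1162 and 1333 CPM. The typical coefficient of variation between libraries of a treatment was 0.377 in LSK, 0.183 in LK and 0.149 in MSC.

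The populations were compared in 1 fit of all 10 sorted libraries. With PBS, 3 of the 6 genes tested were lower in LK than in LSK cells, namely Tnfrsf1a, Tnfrsf1b and Tnfsf9, beside 19.4% called lower among all 13839 genes tested. Tnfrsf1a was lower by a log2 fold change of -0.97 (SE 0.19, adjusted p = 0.00274) and Tnfrsf1b by -1.0 (SE 0.22, adjusted p = 0.00453), and for both genes every LK library was below every LSK library with PBS, as was true of 26.2% of all genes tested. Tnfsf9 differed by -1.99 (SE 0.63, adjusted p = 0.0304), which is 3.98-fold lower in LK. Its call was lost with no filter on low counts (adjusted p = 0.0885) and when either of LSK PBS replicates 1 and 3, either of LK PBS replicates 1 and 2, or either LK IL-1β replicate was left out (adjusted p 0.0616 to 0.128). Without LSK PBS replicate 2 all 3 genes were still called, at -1.05 for Tnfrsf1a, -0.98 for Tnfrsf1b and -2.29 for Tnfsf9.

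With IL-1β, none of these genes was called between LK and LSK cells, beside 4.4% called among all genes. Tnfsf9 alone had an unadjusted p under 0.05, beside 21.8% of all genes. The difference was 0.02 for Tnfrsf1b (95% interval -0.56 to 0.59) and -0.19 for Tnfrsf1a (95% interval -0.71 to 0.32), so that differences of up to these bounds remained possible. For Tnfsf9 it was -2.91 (SE 0.89), which was not called in edgeR (adjusted p = 0.0874) and was called in DESeq2 (adjusted p = 0.0404) and without LSK PBS replicate 2 (adjusted p = 0.0261). Tested directly, the response of LK cells exceeded that of LSK cells by a log2 of 1.02 for Tnfrsf1b (SE 0.34, unadjusted p = 0.0118, adjusted p = 0.241) and of 0.78 for Tnfrsf1a (SE 0.30, unadjusted p = 0.0253, adjusted p = 0.292). None of the 6 genes passed this test in edgeR, DESeq2 or limma-voom, beside 0.0289% of all genes in edgeR, and 14.2% of all genes had an unadjusted p under 0.05. The rise of both receptors in LK cells was therefore not shown to differ from the change in LSK cells.

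Beyond these 10 genes, 14 other ligands, 22 other receptors and 22 genes of receptor signalling were counted as lists. In LSK cells 8 other ligands were tested and 1 was called, beside 0.632% of all genes called in either direction. It was Ltb (lymphotoxin β), which fell from 26.73, 34.02 and 29.79 CPM with PBS to 4.38 and 4.46 CPM with IL-1β (log2 fold change -2.77, adjusted p = 0.0161). None of the 14 other receptors tested and none of the 22 signalling genes was called in LSK cells. At an unadjusted p under 0.05 there were 2 receptors and 1 signalling gene, a smaller share of each list than the 18.5% of all genes, and calls of the other tools were computed for the 10 genes only.

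In LK cells 5 of 16 other receptors tested were called, all higher, beside 6.77% of all genes called higher and 2.57% lower, and their list had a median log2 fold change of 0.32 beside -0.03 over all genes tested. Tnfrsf26 rose from 3.57, 6.47 and 6.72 CPM to 36.52 and 25.32 CPM (log2 fold change 2.46, adjusted p = 0.00414). Tnfrsf8 (CD30) rose from 0.32, 0.31 and 0.43 CPM to 1.72 and 2.08 CPM (2.40, adjusted p = 0.0471), and Ltbr, the receptor of lymphotoxin, from 21.91, 20.54 and 35.03 CPM to 55.05 and 56.89 CPM (1.12, adjusted p = 0.0236). The others were Tnfrsf13b (1.07) and Tnfrsf21 (0.70). Tnfrsf8, and Tnfrsf23 (2.71, not called), had at most 0.43 and 0.46 CPM with PBS. Both passed the filter on low counts through their IL-1β libraries only, so a positive change was built into their being tested. The median of 0.32 includes both, and the 5 calls include Tnfrsf8. Of 6 other ligands tested 1 was called, Tnfsf14 (LIGHT), a ligand of Ltbr, which had 3.65, 3.80 and 6.50 CPM with PBS and 14.56 and 10.74 CPM with IL-1β (1.45, adjusted p = 0.0286). Of 21 signalling genes 2 were called higher, the adaptor Traf3 (0.62, adjusted p = 0.0116) and the caspase-8 inhibitor Cflar (0.58, adjusted p = 0.0419), and the median of this list was 0.00.

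In MSC cultures 6 of 22 signalling genes rose and none fell, beside 7.14% of all genes called higher and 4.31% lower, and their median log2 fold change was 0.26 beside 0.00 over all genes tested. Birc3, an inhibitor of apoptosis that is induced by NF-κB, rose from 29.81 and 26.31 CPM to 64.35 and 64.95 CPM (1.21, adjusted p = 0.00458). Traf1, another NF-κB target that binds Tnfrsf1b and Tnfrsf9, rose from 4.16 and 5.11 CPM to 8.58 and 9.87 CPM (0.96, adjusted p = 0.0491), and Tank, which binds TRAF adaptors, from 38.13 and 32.62 CPM to 61.40 and 58.96 CPM (0.78, adjusted p = 0.0176). Tnfaip3 (A20), an NF-κB target that restrains the pathway, had 23.65 and 29.47 CPM with PBS and 30.55 and 34.55 CPM with IL-1β (0.28, adjusted p = 0.289).

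Among other receptors in MSC cultures 4 of 16 tested were called higher and 1 lower, beside the same 7.14% and 4.31% of all genes. Relt rose from 2.66 and 2.86 CPM to 10.51 and 10.75 CPM (1.93, adjusted p = 0.00749), Tnfrsf14, the receptor of LIGHT, from 4.33 and 4.36 CPM to 14.02 and 11.63 CPM (1.57, adjusted p = 0.0116), and Tnfrsf26 from 28.97 and 22.78 CPM to 55.21 and 53.14 CPM (1.08, adjusted p = 0.0116). Tnfrsf23 was the other gene called higher (0.60), and Tnfrsf12a, the receptor of Tnfsf12, was called lower (-0.81, adjusted p = 0.0193). Of 6 other ligands Tnfsf10 (TRAIL) rose from 1 and 3 counts to 49 and 20 counts (2.98, adjusted p = 0.0333), and Tnfsf12 (TWEAK) fell from 100.58 and 126.29 CPM to 63.85 and 68.30 CPM (-0.79, adjusted p = 0.0239). Tnfsf10 passed the filter on low counts through its IL-1β libraries only. Tnfsf12 shares 731 of its 1515 exon bases with the annotated readthrough gene Tnfsfm13, so its counts are uncertain.

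**Figure D4:**
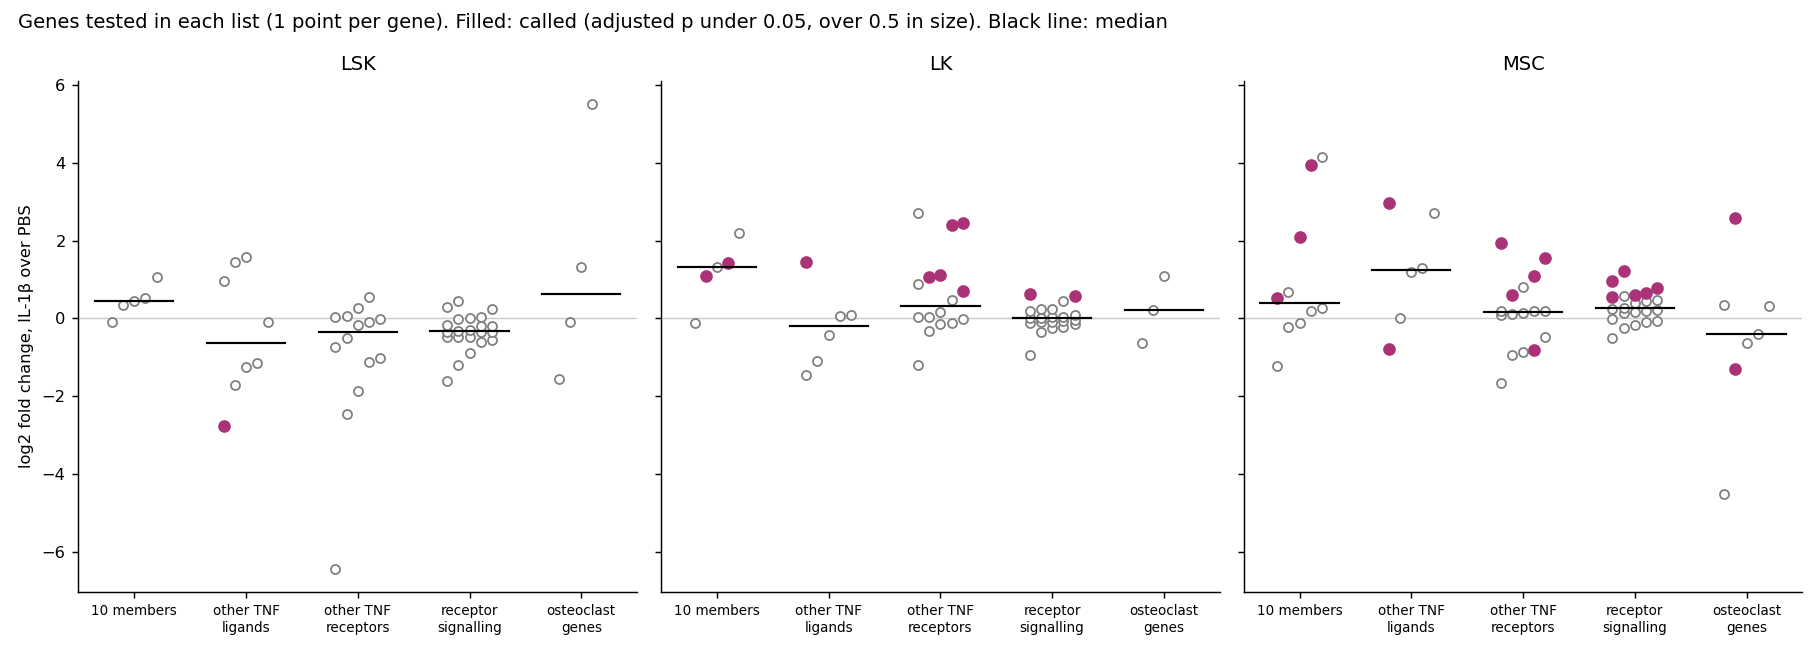
Log2 fold change with IL-1β against PBS of the tested members among the 10 genes and of the 4 further lists (other ligands, other receptors, receptor signalling, osteoclast), by population. Each point is a gene, filled where called. Black lines are medians, and the called points of LK other receptors and of MSC receptor signalling all lie above 0.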

How the data were processed

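Total RNA depleted of ribosomal RNA was sequenced. The authors trimmed the reads with fastp 0.20.0, aligned them with HISAT2 2.0.1 to GRCm38 and used SAMtools 1.10, and the deposited values are unnormalized counts of read pairs per Ensembl gene. The file headers name featureCounts 2.0.2 in reverse-stranded mode for the counting, and the methods name GenomicAlignments. By default featureCounts leaves out pairs that map to several places or overlap several genes, which lowers the counts of overlapping genes. Symbols came from GENCODE M21 on the same build, which named 55141 of the 55487 identifiers. Groups and replicate numbers came from the sample labels.

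Tests used edgeR 4.0.16 under R 4.3.3, with filterByExpr, TMM, robust glmQLFit and glmQLFTest, on whole tables of counts, with Benjamini-Hochberg adjustment over all genes tested. Treatments were compared within each population. LK and LSK were compared, and their responses tested for a difference, in 1 fit with 4 groups. Standard errors were derived from the F statistic as |log2 fold change|/√F, and limma 3.58.1 (voom) and DESeq2 1.42.0 were alternatives. The tests were checked on simulated data. Figures were drawn with matplotlib 3.10.9. No pair of libraries agreed within sampling noise. The labels do not say whether libraries of a group came from separate mice or cultures, so p-values measure the spread between these libraries, and intervals cover counting error only where so stated.

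The labels do not say whether LSK and LK libraries of one number came from one mouse. Correlations of deviations were 0.138 to 0.463 for libraries of one number. LSK PBS replicate 2 correlated more with LK PBS replicate 1 (0.181) than with its own number. In a group of 2 libraries the deviations mirror each other, so the IL-1β pairs give a single value (0.144). These correlations therefore cannot decide whether the numbers pair the populations, and a block on the number was fitted only as an alternative. Fits with and without this block called the same number of the 10 genes. PBS and IL-1β mice were different animals.

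The 10 genes and all lists were chosen with earlier results of these data known. Named beside the 10 genes are, per list and comparison of treatments, up to 3 called genes of the largest change, and Traf1, Birc3 and Tnfaip3. Tnfrsf13b, Tnfrsf21, Tnfrsf23, Tnfrsf12a, Dcstamp, Mmp9, Ctsk and Atp6v0d2 fall outside this rule, having been picked once their values were known, and other named genes are markers. A further IL-1β MSC library, named in a file header without a column of counts, was not analysed here.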

Additional observations from a re-analysis of the deposited data

Results flagged for a closer look

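Of the genes of all lists, markers included, 21 moved in opposite directions in 2 populations without overlap between treatments in either. The share of all genes that did so was not computed. Lack of overlap by itself was common, at 39.6% of all genes tested in LSK cells and 61.1% in MSC cultures. Those named in the text are given here. The differences between populations were not tested, and the MSC cultures differ from the sorted cells in genotype, dose and time. Birc3 changed by a log2 fold change of -0.8915 in LSK cells (36.37, 29.48 and 38.09 CPM with PBS, 22.24 and 14.86 CPM with IL-1β, not called) and of 1.2117 in MSC cultures, where it was called. Tnfsf10 changed by -1.2424 in LSK cells (54.41, 26.35 and 61.86 CPM with PBS, 21.76 and 18.33 CPM with IL-1β, not called) and by 2.9774 in MSC cultures, where it was called from low counts. Tnfrsf8 changed by 2.4047 in LK cells, where it was called, and by -0.8537 in MSC cultures (7 and 21 counts with PBS, 16 and 13 counts with IL-1β, not called). Tnfsf12 changed by 1.5806 in LSK cells (17, 1 and 17 counts with PBS, 22 and 8 counts with IL-1β, not called) and by -0.7858 in MSC cultures, where it was called. Tnfrsf12a changed by 0.4795 in LK cells (not called) and by -0.8100 in MSC cultures, where it was called. Of the markers, Csf1r changed by -1.3517 in LSK cells (not called), by -2.4938 in LK cells and by 1.2470 in MSC cultures, called in the last 2, and Ly6a by -0.7162 in LSK cells and 0.2691 in MSC cultures, called in neither. None of the 10 genes was among the 21. A looser rule on CPM, for genes too low to be tested, was applied to the 10 genes only, and Tnfsf9 alone met it. Its mean changed by -0.4037 CPM in LK cells, where it was too low to be tested (6, 13 and 16 counts with PBS, 3 and 2 with IL-1β). In MSC cultures it changed by 2.5990 CPM and was not called. No group held 4 or more libraries, so Dixon's test for an outlying library was not applied.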

How the results depend on the processing

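Each log2 fold change of the 10 genes was taken under the alternatives in which the gene could be tested. Of 573 values, 524 were counted as unchanged in direction and side of the threshold, 19 lost a call, 9 gained one and 21 changed direction. The alternative with no fold-change threshold reused the main fit, so its values could not change direction. Values without an adjusted p were counted as unchanged unless their direction changed. Leaving out 1 library moved the number of the 10 genes called in LK cells from 2 to between 0 and 2 (0 without either IL-1β library, 1 without PBS replicate 2), and in MSC cultures from 3 to between 0 and 6. It was 6 without PBS replicate 2 and 4 without PBS replicate 3, and 0 without IL-1β replicate 1 and 1 without IL-1β replicate 2. In the MSC fits the lone library of an arm was assumed to vary like the other arm. Between LK and LSK cells with IL-1β the number was 0, and 1 with DESeq2 or without LSK PBS replicate 2 (range 0 to 1 with 1 library left out), which was Tnfsf9. With PBS it was 3, and 2 with no filter on low counts. No alternative called any of the 10 genes in LSK cells or for the difference of the responses.

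The changes of direction fell on genes that were not called. With 1 library left out, the log2 fold change of Tnf ranged from -1.01 to 1.22 in LSK, from -2.44 to 0.69 in LK, from -0.75 to 0.65 for LK against LSK with PBS, from -3.01 to 0.81 with IL-1β and from -2.93 to 0.88 for the difference of the responses. For Tnfsf9 in LSK it ranged from -0.46 to 0.29, and was 0.025 with limma-voom and 0.30 with the replicate block. In MSC it ranged from -2.20 to 1.15 for Tnfrsf11b and from -0.53 to 0.30 for Tnfsf13b. For Fas it ranged from -0.12 to 1.91 for LK against LSK with PBS and from -0.035 to 1.99 for the difference of the responses. For LK against LSK with IL-1β it ranged from -0.36 to 0.067 for Tnfrsf1a and from -0.11 to 0.21 for Tnfrsf1b, which was -0.070 with upper-quartile factors. Causes were not tested.

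With the replicate number as a block, the comparisons of treatments in LSK and LK cells gave 0 and 2 called genes of the 10, as without it. The PBS and IL-1β mice were different animals, so their numbers do not pair (correlations of deviations -0.138 to 0.199). For LK against LSK it is undecided whether the numbers pair. A block within treatment, an alternative chosen after seeing the data, gave 3 with PBS and 0 with IL-1β and for the difference of the responses. The replicate block gave the same numbers. It turned Tnf from -0.16 to 0.28 with PBS. Over all genes the block raised the calls from 83 to 702 in LSK and from 1199 to 2331 in LK, and within treatment from 4 to 24 for the difference of the responses. No paired analysis was possible because the treatments share only replicate number 2 in MSC cultures. Depth limits the scarce genes most: 3 counts correspond to up to 0.743 CPM in LSK, 0.481 CPM in LK and 0.5 CPM in MSC libraries.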
